A study of Drosophila melanogaster with 12 samples.

Results

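Genes of the piRNA pathway were followed in testes of Drosophila melanogaster with and without the zinc finger protein encoded by su(Hw). The genes form a list of 34 chosen for what they are known to do, and 32 of them had a probe set that carries their symbol and no other, among 18769 probe sets tested for 11953 genes. The other two, arx and egg, had no such probe set and are named only. PIWI-interacting RNAs, or piRNAs, are short RNAs that guide PIWI-family Argonaute proteins to transposon transcripts and silence them in the gonad. Precursors come largely from genomic clusters, are cut into piRNAs at the mitochondrial surface, and are multiplied in the perinuclear nuage by the reciprocal slicing of the ping-pong cycle, in which Aub and AGO3 alternate. In the fly testis, piRNAs from the Y-linked Suppressor of Stellate repeats silence the X-linked Stellate repeats, whose protein forms crystals in spermatocytes when silencing fails. Su(Hw) binds the insulator of the gypsy retrotransposon and many other genomic sites, its loss suppresses the phenotypes of some gypsy insertions, and it also represses genes in the germline.

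RNA came from testes of males aged 3 days kept at 25 °C, pooled from about 100 pairs for a preparation. It was amplified into cDNA and hybridised to one-colour Affymetrix arrays, 12 in all, with 3 arrays labelled as biological replicates for each of 4 genotypes. Canton S is a wild-type strain. BL15598 is y[1]w[67c23] with the insertion P{EPgy2}Amt[EY02782] and is wild type for su(Hw). A2663/2 carries the same y[1]w[67c23] and Amt[EY02782] insertion with the null combination su(Hw)[A2663] over su(Hw)[2]. 2/v has y[1]w[67c23] together with ct[6] and f[1], and is su(Hw)[2] over su(Hw)[v]. Both nulls therefore share allele 2. BL15598 matches the labelled background of A2663/2, whereas Canton S lacks the y, w, ct and f alleles that 2/v carries. The arrays measure whole testes, so fewer cells of a type and less RNA per cell cannot be told apart.

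The targeted gene followed the labels. The su(Hw) signal, in the deposited intensity units, was 864, 885 and 1205 on the Canton S arrays, 1409.8, 1544 and 1223 on the BL15598 arrays, 64.0, 56.7 and 89.6 on the A2663/2 arrays, and 38.7, 19.2 and 70.0 on the 2/v arrays. It was 22.9-fold lower in the 6 null arrays than in the 6 wild-type arrays (log2 change -4.52, SE 0.283, adjusted p = 1.04e-05). One 2/v array lay below 20.4, the median signal of the control probe sets. All 10 of the spermatid marker genes and all 13 of the spermatocyte marker genes on the lists used here lay above that median on every array, as did all 9 accessory gland genes. No 2 arrays held identical values. Correlations with arrays of the same genotype ran from 0.952 to 0.964, and with arrays of other genotypes from 0.935 to 0.95 (means per array).

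Every one of the 32 measured piRNA genes was above the control median on every array, with signals from 69.4 for SoYb to 11951 for papi. Their replicate error was small: the SD of log2 signal within a genotype had a median of 0.178 over the 32 genes. It ranged from 0.0661 to 0.318, beside a median of 0.314 over all probe sets. The 2 sets were not matched for brightness, and on every array the 32 genes had a higher mean log2 signal than all probe sets.

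In the null testes 6 of the 32 genes differed from wild type at an adjusted p under 0.05 (limma, with the 4 genotype means fitted on all 12 arrays and each pair of genotypes averaged, Benjamini-Hochberg over 18769 probe sets). cuff rose, and spn-E, tej, krimp, shu and vls fell. This is 18.75% of the genes, beside 13.5 percent of all probe sets, of which 8.87 percent were called higher and 4.6 percent lower. Among the 11953 genes by their representing probe set, 15.7 percent were called. The other 26 did not pass the test. At an unadjusted p under 0.05, 8 of the 32 differed, the 6 called genes and, both lower, tapas and BoYb, beside 26 percent of all probe sets in either direction. The median log2 change was -0.06 over the 32 genes and 0.05 over all probe sets, and 21 of the 32 changes were negative, beside 43.8 percent of all probe sets. All 6 changes were under 2-fold. Each of the 6 was also called under each of the 9 other settings tried and with each of the 12 arrays left out.

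**Figure D1:**
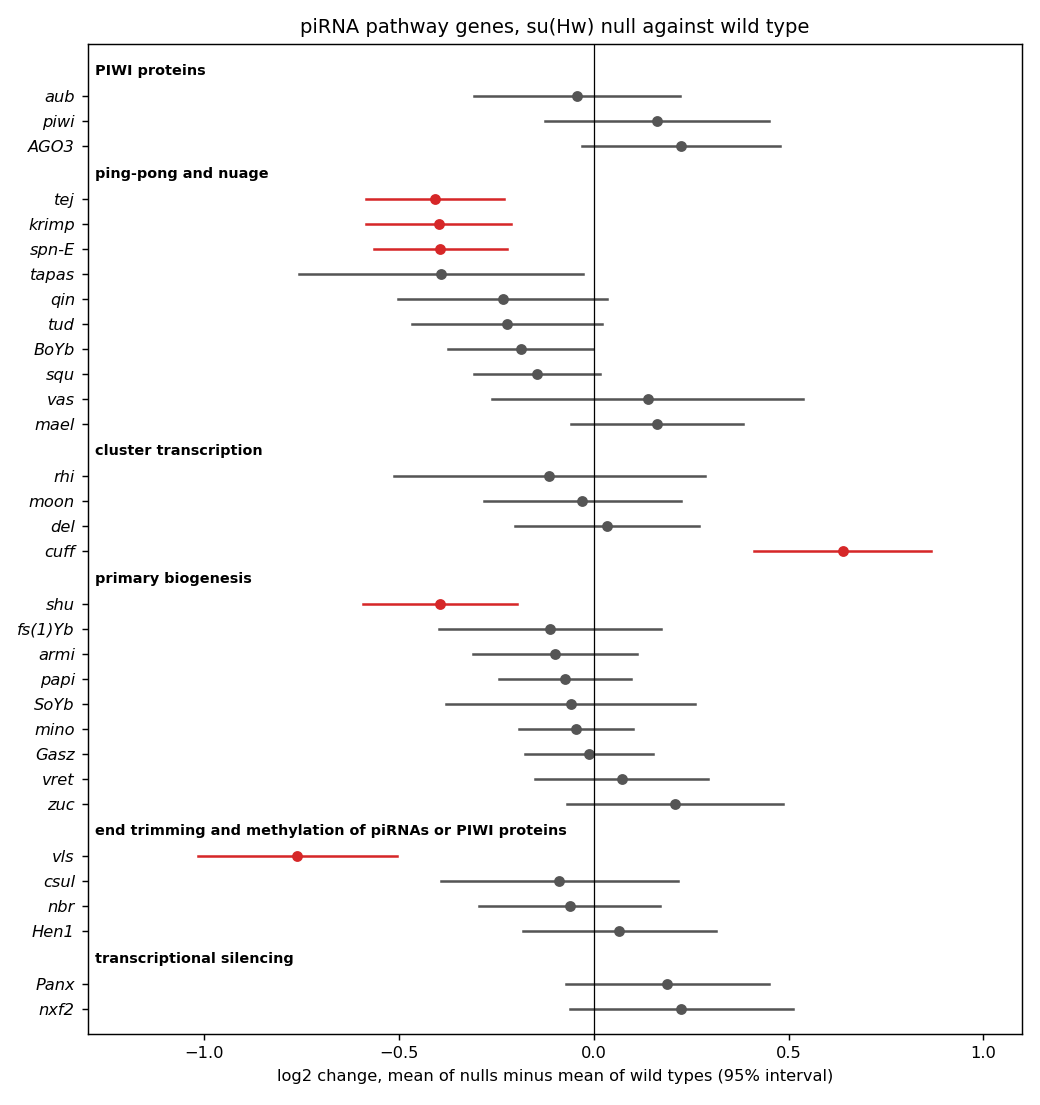
Log2 change of each of the 32 measured piRNA pathway genes in null against wild-type testes, with 95% confidence intervals, grouped by role. The intervals of the 26 genes that did not pass the test lie within -0.76 and 0.54; of the called genes cuff lies to the right of 0, and spn-E, tej, krimp, shu and vls lie to the left.

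In null against wild type none of the 3 PIWI protein genes passed the test in either direction, at adjusted or unadjusted p. The signal of piwi, which encodes the nuclear PIWI protein that directs transcriptional silencing, was 290.1, 203 and 193 in Canton S, 275, 189 and 228 in BL15598, 268, 255 and 270.4 in A2663/2, and 248, 258 and 225 in 2/v. The null arrays lay inside the wild-type range (log2 change 0.16, adjusted p = 0.486). That of aub, which encodes the cytoplasmic PIWI protein that slices transposon transcripts, was 1027, 938 and 1168 in Canton S, 1237, 1245 and 1713 in BL15598, 1004, 1267 and 1178 in A2663/2, and 1041, 1267 and 1253 in 2/v, again with overlapping groups (-0.04, adjusted p = 0.863). That of AGO3, the ping-pong partner of Aub, was 768, 851 and 1136 in Canton S, 1290.1, 1382 and 1189 in BL15598, 1052, 1367 and 1164 in A2663/2, and 1401, 1302 and 1306 in 2/v. Canton S was the lowest genotype for AGO3, although its highest array lay above the lowest A2663/2 array. The log2 change of AGO3 was 0.22 in null against wild type (adjusted p = 0.255), 0.56 in 2/v against Canton S (adjusted p = 0.056) and 0.51 in the wild-type BL15598 against Canton S (adjusted p = 0.088). The pair 2/v against Canton S lay near the threshold: AGO3 was called higher there under 5 of the 9 other settings (adjusted p from 0.0181 to 0.242 over the 9) and without Canton S replicate 3 (adjusted p = 0.0148). Between the wild types it was called higher under 2 of the 9, the trended and robust prior (adjusted p = 0.0356) and array weights (adjusted p = 0.0291), and without Canton S replicate 3 (adjusted p = 0.0219). Without that array AGO3 was also called in A2663/2 against Canton S (adjusted p = 0.0478).

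Of the 10 genes of the ping-pong cycle and the nuage, 3 fell, none rose and 7 did not pass the test. Of all probe sets 4.6 percent fell and 8.87 percent rose. The median log2 change of the 10 was -0.23, beside 0.05 over all probe sets, and 8 of the 10 changes were negative, beside 43.8 percent. At an unadjusted p under 0.05, 5 of the 10 were lower, beside 9.61 percent of all probe sets. spn-E encodes a DExH-box RNA helicase with a Tudor domain that is required for ping-pong piRNAs and for Stellate silencing. Its signal was 604, 577 and 697 in Canton S, 756, 795 and 734 in BL15598, 529, 592 and 511 in A2663/2, and 499, 529.6 and 492 in 2/v. BL15598 was above the 9 other arrays, and replicate 2 of A2663/2 was just above replicate 2 of Canton S, so the null and wild-type groups overlapped. spn-E was 1.31-fold lower in null testes, by limma (log2 change -0.39, SE 0.076, adjusted p = 0.00778).

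tej encodes a Tudor and LOTUS domain protein that brings Vasa to the nuage. Its signal was 442, 429.6 and 463 in Canton S, 424, 402 and 371 in BL15598, 374, 314 and 349.8 in A2663/2, and 295, 317 and 265 in 2/v. Canton S was above the 9 other arrays, and only replicate 1 of A2663/2 reached the lowest wild-type array. tej was 1.33-fold lower in null testes, by limma (log2 change -0.41, SE 0.0792, adjusted p = 0.00802). krimp encodes a Tudor domain protein that binds AGO3 and Aub in the nuage. Its signal was 1306, 1345 and 1478 in Canton S, 1401, 1174 and 1255 in BL15598, 1127, 1068 and 1046 in A2663/2, and 819.9, 989 and 1001 in 2/v. All 6 null arrays lay below all 6 wild-type arrays, and the 3 arrays of 2/v were the lowest. krimp was 1.32-fold lower (log2 change -0.40, SE 0.0829, adjusted p = 0.0114).

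The other 7 genes of this group ran from -0.39 to 0.16. The largest of these was tapas, a Tudor domain gene related to mammalian Tdrd7, at -0.39 (SE 0.162, adjusted p = 0.16). Its signal was 2836, 2609 and 3205 in Canton S, 2486, 2198 and 4359 in BL15598, 2109, 2129 and 2321 in A2663/2, and 1948, 2310.4 and 2358 in 2/v. The null arrays of tapas overlapped with 1 wild-type array, and BL15598 spread widely. Its second probe set stood at -0.35 (adjusted p = 0.196). tapas passed the test under 1 of the 9 other settings, the trended and robust prior (adjusted p = 0.0489). qin, whose protein joins Tudor domains with a RING finger, changed in log2 by -0.23 (adjusted p = 0.258), and its second, dimmer probe set by 0.40 (adjusted p = 0.719), so its probe sets differed in sign. For tud, the founding Tudor gene, the log2 change was -0.22 (adjusted p = 0.235), and for BoYb, a relative of Yb, -0.19 (adjusted p = 0.188). squ, whose protein associates with Aub in the nuage, stood at -0.15 (adjusted p = 0.243). vas, the DEAD-box helicase that scaffolds nuage, was at 0.14 (adjusted p = 0.694), and mael, which encodes an HMG-box protein of nuage and nucleus, at 0.16 (adjusted p = 0.351). With each array centred on its median, tud (-0.39, adjusted p = 0.033), squ (-0.32, adjusted p = 0.0126) and BoYb (-0.36, adjusted p = 0.0455) passed as well, which made 1 higher and 8 lower of the 32 beside 16.5 percent of all probe sets. That centring moved the median of all probe sets from 0.05 to -0.12 and of the 32 genes from -0.06 to -0.23.

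Of the 4 genes for transcription of piRNA clusters 1 rose and 3 did not pass the test, where 8.87 percent of all probe sets rose and 4.6 percent fell. cuff encodes a Rai1-related protein that acts with Rhino and Deadlock to protect cluster transcripts from termination and decay. Its signal was 626, 476 and 587 in Canton S, 448, 418 and 417 in BL15598, 687, 736 and 902 in A2663/2, and 792, 683 and 786 in 2/v. All 6 null arrays lay above all 6 wild-type arrays, and BL15598 was the lowest genotype. cuff was 1.56-fold higher in null testes, by limma (log2 change 0.64, SE 0.101, adjusted p = 0.0027). Its complex partners gave -0.11 for rhi, which encodes an HP1-like chromatin protein (adjusted p = 0.748), and 0.03 for the adaptor gene del (adjusted p = 0.881). moon, whose product recruits the basal transcription machinery to clusters, gave -0.03 (adjusted p = 0.904).

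Among the 9 genes of primary biogenesis 1 fell, beside 4.6 percent of all probe sets, and 8 did not pass the test. shu encodes an FKBP-family co-chaperone needed to load piRNAs onto PIWI proteins. Its signal was 305, 235 and 264 in Canton S, 307, 294 and 264 in BL15598, 216, 203 and 212 in A2663/2, and 193, 211 and 230.0 in 2/v. All 6 null arrays lay below all 6 wild-type arrays, with a gap of a few units between replicate 3 of 2/v and replicate 2 of Canton S. shu was 1.32-fold lower (log2 change -0.40, SE 0.0875, adjusted p = 0.0154). The genes for piRNA processing at mitochondria did not pass: zuc, the endonuclease, stood at 0.21 (adjusted p = 0.338), Gasz, its scaffold, at -0.01 (adjusted p = 0.94), mino, an acyltransferase, at -0.05 (adjusted p = 0.727), and papi, a Tudor-KH protein, at -0.08 (adjusted p = 0.6). Nor did armi, the helicase that feeds precursors to them, at -0.10 (adjusted p = 0.569), the Tudor gene vret at 0.07 (adjusted p = 0.717), or fs(1)Yb, known from Yb bodies of ovarian somatic cells, at -0.11 (adjusted p = 0.645). SoYb, a paralog of Yb, averaged -0.06 over both pairs (adjusted p = 0.841) and is described further on.

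Of the 4 genes for finishing piRNAs or methylating PIWI proteins 1 fell, beside 4.6 percent of all probe sets, and 3 did not pass. vls encodes Valois, the WD-repeat partner of the arginine methyltransferase Capsuléen, which modifies PIWI proteins for Tudor binding. Its signal was 652, 701 and 769 in Canton S, 945, 766 and 816 in BL15598, 413, 550.4 and 485 in A2663/2, and 424, 512 and 367 in 2/v. All 6 null arrays lay below all 6 wild-type arrays. vls had the largest change of the 32 genes, 1.7-fold lower in null testes, by limma (log2 change -0.76, SE 0.114, adjusted p = 0.00185). Its partner csul, the methyltransferase itself, stood at -0.09 (adjusted p = 0.744). Hen1, which methylates the ends of piRNAs, stood at 0.07 (adjusted p = 0.773) and nbr, the exonuclease that trims them, at -0.06 (adjusted p = 0.77). Both measured genes of the nuclear silencing complex downstream of Piwi, Panx at 0.19 (adjusted p = 0.356) and nxf2 at 0.22 (adjusted p = 0.314), did not pass.

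**Figure D2:**
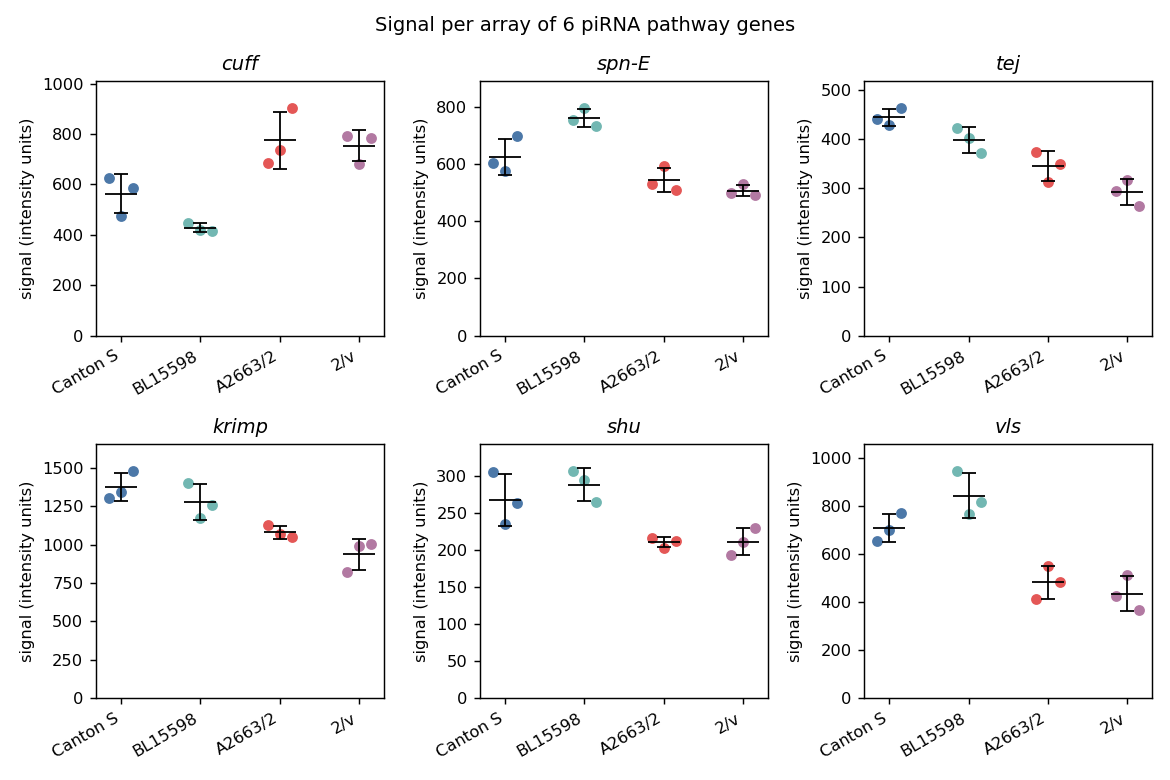
Signal in intensity units on each of the 12 arrays for the 6 piRNA genes called in null against wild type, by genotype, with the mean and SD (n = 3). For cuff the null arrays lie above, and for krimp, shu and vls below, all wild-type arrays, whereas for spn-E and tej a null array reaches into the wild-type range.

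The groups of 6 arrays did not overlap for 4 of the 32 genes: cuff higher, beside 4.43 percent of all probe sets, and krimp, shu and vls lower, beside 1.98 percent. The 26 genes that were not called had log2 changes from -0.39 to 0.22 with SE from 0.0652 to 0.178. Their 95% confidence intervals lay within -0.76 and 0.54, which are the extremes over the 26 genes. For each gene, only changes within its own, often narrower, interval were not resolved.

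Each null was then set against each wild type. A2663/2 against BL15598 is the pair with matched labelled background. There, by limma, cuff rose (log2 change 0.85, adjusted p = 0.00672), while spn-E (-0.49, adjusted p = 0.0255) and vls (-0.81, adjusted p = 0.0156) fell. This made 3 of 32 genes beside 6.83 percent of all probe sets. Not called in this matched pair were tej, krimp and shu. Geometric mean signals in A2663/2 and BL15598 were 345 and 399 for tej, 1080 and 1273 for krimp, and 210 and 288 for shu. In 2/v against Canton S, 4 genes fell beside 10.4 percent called: tej (-0.61, adjusted p = 0.00736), krimp (-0.56, adjusted p = 0.0145), vls (-0.71, adjusted p = 0.0199) and SoYb (-0.85, adjusted p = 0.0262). vls was thus called in both pairs, which share no arrays although both nulls carry allele 2. Both calls used a spread estimated from the arrays of all genotypes. Among the other settings tried, only the fit of each pair's own arrays lost vls, and it did so in both pairs. The call in the first pair was also lost without A2663/2 replicate 1 or 3 or BL15598 replicate 1. In the second pair it was lost without 2/v replicate 1 or 3 or Canton S replicate 2 or 3. The share of all probe sets called in both pairs is not given here. The counts moved with single arrays. The first count fell to 1 gene without A2663/2 replicate 1 or 3 or BL15598 replicate 1, and to 2 without BL15598 replicate 2. In those fits 4.25 to 5.63 percent of all probe sets were called. The second count fell to 1 without 2/v replicate 1 (beside 7.3 percent) and to 2 without 2/v replicate 3 (beside 7.36 percent). With median centring it rose to 8, beside 11.9 percent.

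Both other pairs reuse these arrays. In 2/v against BL15598, cuff rose (0.81, adjusted p = 0.00591) and spn-E (-0.59, adjusted p = 0.00718), tej (-0.45, adjusted p = 0.0321), krimp (-0.45, adjusted p = 0.0389), shu (-0.45, adjusted p = 0.0484) and vls (-0.96, adjusted p = 0.00438) fell, 6 of 32 beside 10.6 percent. That count was 3 without 2/v replicate 1 or 3, A2663/2 replicate 3, or BL15598 replicate 1 or 2, beside 7.08 to 9.14 percent. In A2663/2 against Canton S none was called by limma beside 9.21 percent, although 9 had an unadjusted p under 0.05, beside 21.7 percent. The other settings called 0 to 4 there, beside 6.04 to 12.8 percent of all probe sets. Leaving out Canton S replicate 3 gave 2, beside 7.66 percent. In that pair cuff stood at 0.46 (adjusted p = 0.0841), vls at -0.56 (adjusted p = 0.063) and tej at -0.37 (adjusted p = 0.0802). No gene was called in all 4 pairs, where 2.05 percent of probe sets were. Under the other settings 0 to 2 were, beside 1.04 to 2.89 percent. At an unadjusted p under 0.05 in each, 3 genes were: cuff higher, and shu and vls lower, beside 5.19 percent of all probe sets.

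**Figure D3:**
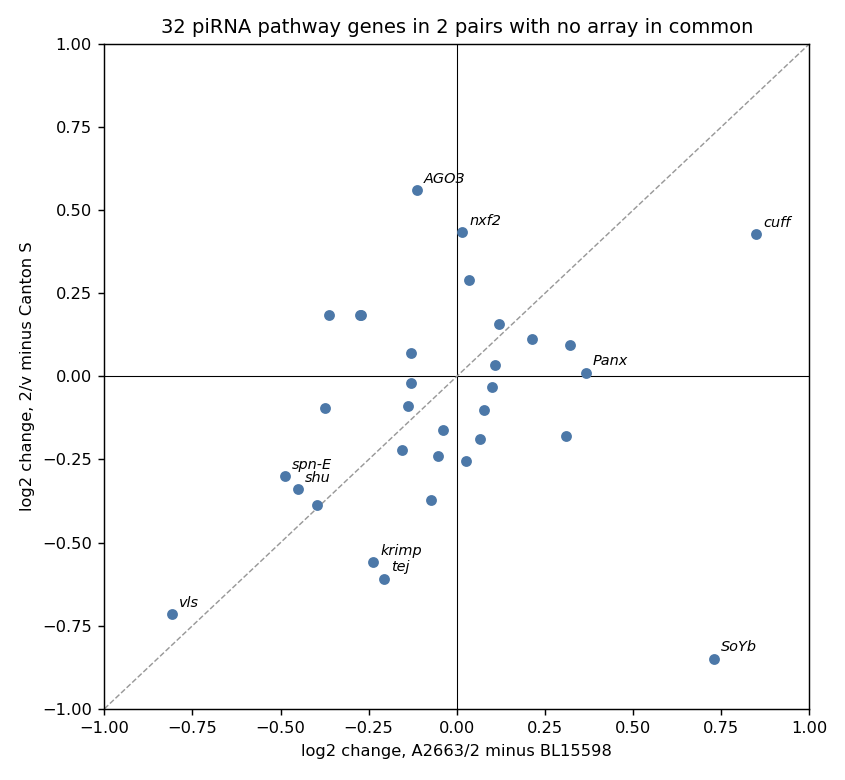
Log2 change of the 32 piRNA genes in A2663/2 against BL15598 (x axis) and in 2/v against Canton S (y axis), pairs that share no arrays. 21 of the 32 genes have the same sign in both; vls is low and cuff high in both, and SoYb lies on opposite sides of 0.

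Over the 32 genes, 21 had the same sign in both unshared pairs, 13 lower and 8 higher, which is 65.6% beside 58.3% of all probe sets. Pearson's r across these genes was 0.24, and 0.50 over the 31 without SoYb, beside 0.27 across all probe sets. Genes are not independent replicates, and all changes rest on the same 12 arrays. The mean log2 signal of the 32 genes was 9.44, 9.49 and 9.44 on the 2/v arrays, below the range of 9.50 to 9.62 on the 9 others. The median over all probe sets lay between 7.80 and 7.94 in 2/v, overlapping the 7.60 to 7.92 of the other arrays. Whether the scaling of the arrays had a part in the lower mean of the 32 genes in 2/v was not tested.

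SoYb was the gene for which the nulls differed. SoYb, or Sister of Yb, encodes a Tudor domain protein related to helicases that acts in germline biogenesis together with BoYb. Its signal was 124, 114 and 187 in Canton S, 107, 121 and 137 in BL15598, 213, 208 and 184 in A2663/2, and 70.4, 92.3 and 69.4 in 2/v. The 3 arrays of 2/v lay below the 9 others, and A2663/2 lay above BL15598 and above all but 1 of the Canton S arrays. SoYb was 2.62-fold lower in 2/v than in A2663/2 (log2 difference -1.39, SE 0.202, adjusted p = 0.0129), the only one of the 32 genes called between the nulls, beside 0.927 percent of all probe sets. Without 2/v replicate 1 or 3, or A2663/2 replicate 1 or 2, that adjusted p lay between 0.0585 and 0.0655 and the call was lost.

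The difference of the null effects sets the change in 2/v against Canton S, -0.85, against the change in A2663/2 against BL15598, 0.73 (adjusted p = 0.0657). For SoYb it was -1.58 (SE 0.285, adjusted p = 0.0145), again the only call among the 32 beside 4.07 percent of probe sets. It kept an adjusted p between 0.00996 and 0.0441 under every other setting run for it and with each array left out. In the annotation SoYb overlaps CG31875, whose log2 change was 0.80 in null against wild type (adjusted p = 0.000714) and 0.25 between the nulls (adjusted p = 0.729). Whether the probes separate the overlapping transcripts was not tested.

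**Figure D4:**
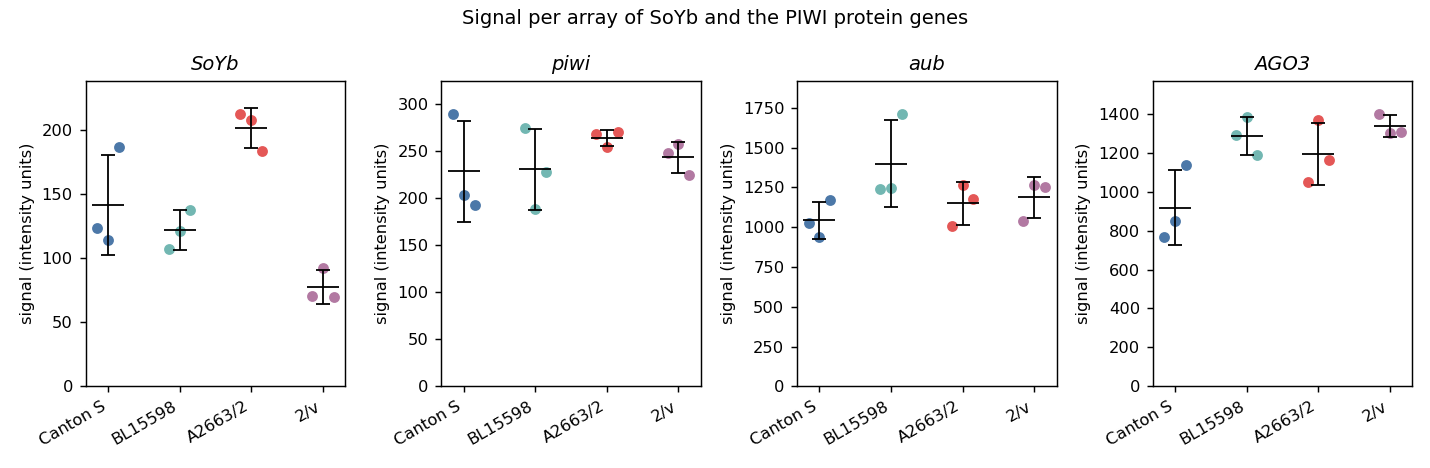
Signal in intensity units on each array for SoYb and the PIWI protein genes piwi, aub and AGO3, by genotype, with the mean and SD (n = 3). The 2/v arrays are lowest for SoYb, and the PIWI protein genes show overlapping null and wild-type arrays.

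Further genes had 2/v arrays below the 9 others: krimp, squ and Gasz. With SoYb this made 4 of 32, beside 1.97 percent of all probe sets, and none had 2/v above the others, beside 2.9 percent. squ measured 5184, 4862 and 4785 in Canton S, 5456, 5300.4 and 4678 in BL15598, 4998, 4729 and 5129.8 in A2663/2, and 4259, 4433 and 3892 in 2/v. Gasz measured 1148, 1150.2 and 1246 in Canton S, 1344, 1192 and 1351 in BL15598, 1506, 1311 and 1287 in A2663/2, and 1124, 1116 and 1060.5 in 2/v. Neither passed the test between the nulls (adjusted p = 0.534 for squ and 0.347 for Gasz). A2663/2 stood above the others for zuc only, and below for none, beside 2.19 percent in either direction.

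The wild-type strains were compared in the same fit. None of the 32 genes was called by limma in BL15598 against Canton S, beside 9.58 percent of all probe sets. At an unadjusted p under 0.05, 6 were higher and 1 lower, beside 22 percent in either direction. The other settings called 0 to 3 at an adjusted p under 0.05, from among AGO3, mael and mino, beside 3.81 to 12.4 percent. Leaving out Canton S replicate 3 gave 1, AGO3, beside 8.36 percent. The strains still stood apart for single genes: tej was highest and mael lowest in Canton S, and spn-E was highest and cuff lowest in BL15598, 2 of 32 each beside 8.67 percent and 7.85 percent of all probe sets. For mael the signal was 3809, 2718 and 3591 in Canton S, 4465, 4803 and 4086 in BL15598, 4827, 4545 and 4281 in A2663/2, and 3962, 4316 and 3961 in 2/v. Its log2 change between the wild types was 0.41 (adjusted p = 0.108). For spn-E and cuff, the change between the wild types was 0.29 (adjusted p = 0.148) and -0.39 (adjusted p = 0.143), each opposite in sign to the change in the nulls. Against Canton S the values were smaller than against BL15598: cuff stood at 0.43 (adjusted p = 0.102) and spn-E at -0.30 (adjusted p = 0.122) in 2/v against Canton S.

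Further genes of the pathway were counted from lists of known function in null against wild type, where 8.87 percent of all probe sets rose and 4.6 percent fell. Of 12 measured cofactors of transcriptional silencing 1 rose and none fell. This was Su(var)2-10, a SUMO ligase that links Piwi complexes to heterochromatin factors, whose signal was 1286 ± 111 in Canton S, 1331 ± 343 in BL15598, 1743 ± 55.7 in A2663/2 and 1805 ± 59.7 in 2/v (SD, n = 3). The null arrays were all above the wild-type ones, with a log2 change of 0.46 (SE 0.128, adjusted p = 0.0423). The call was lost with median centring (adjusted p = 0.122), with the mean of its probe sets (0.183), with the replicate block (0.0695) and with each of 9 single arrays left out. Of 15 measured genes for cluster transcription and RNA export 2 fell and none rose, beside 13.5 percent of all probe sets called in either direction. Both belong to the THO complex, which packages nascent transcripts for export and binds cluster transcripts. Hpr1, tho2 and thoc7 of the same complex were also measured on this list and did not pass the test.

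thoc5 measured 1593 ± 87.4 in Canton S, 1181 ± 156 in BL15598, 1037 ± 61.1 in A2663/2 and 902 ± 112 in 2/v (SD, n = 3), with a log2 change of -0.50 in null against wild type (adjusted p = 0.00664). thoc6 measured 165 ± 34.2, 183 ± 25.6, 158 ± 11.9 and 83.4 ± 6.66 in the same order, with a log2 change of -0.59 (adjusted p = 0.0097), and fell between the nulls too (2/v against A2663/2, -0.92, adjusted p = 0.04). Its call against wild type was lost when genotypes within each class were ignored (adjusted p = 0.154). None of 4 other biogenesis genes and none of 5 genes of the siRNA and miRNA machinery passed the test, at adjusted or unadjusted p.

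Targets of testis piRNAs were measured in part. Transposon transcripts were not analysed here. A probe set shared by 12 Stellate copies and 1 other symbol, so that no single copy can be named, gave 1300.2, 1153 and 1585 in Canton S, 1898, 2219 and 1955 in BL15598, 1277, 2039.5 and 1192 in A2663/2, and 1051, 1401 and 1001 in 2/v. BL15598 was high, and null and wild-type arrays overlapped (log2 change -0.35, adjusted p = 0.202). The probe set was lower in 2/v than in BL15598 (-0.83, adjusted p = 0.0461) and stood at 0.60 in BL15598 against Canton S (adjusted p = 0.149). pira, a reported target of piRNAs from the Y chromosome, stood at 0.39 in null against wild type (adjusted p = 0.085), and Ssl at 0.16 (adjusted p = 0.372). Neither passed the test, although pira had an unadjusted p under 0.05.

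The chromosomal neighbours of the 32 genes, in RefSeq order, held 7 higher and 2 lower calls among 64, or 14.1% beside 13.5 percent of all probe sets. Some genes that rose lay next to piRNA genes that fell, named here after their values were seen: Shrm beside tej (log2 change 0.59, adjusted p = 0.0134), CG15708 beside krimp (0.40, adjusted p = 0.0312) and bwa beside vls (0.55, adjusted p = 0.00332). cuff overlaps ERp60 (-0.17, adjusted p = 0.122) and vls overlaps lok (-0.26, adjusted p = 0.148), neither of which passed.

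Lists of cell type markers were read in the same contrast, null against wild type, beside the 8.87 percent of all probe sets that rose and the 4.6 percent that fell. Of 8 germline stem cell and spermatogonium markers 1 rose and none fell, and their mean log2 signal per array was 8.76 to 8.87 in Canton S, 8.48 to 8.75 in BL15598, 8.65 to 8.90 in A2663/2 and 8.66 to 8.83 in 2/v. Of 13 spermatocyte markers 2 rose and 3 fell, and of 10 spermatid markers 1 rose and none fell. None of 5 cyst cell markers passed the test at adjusted or unadjusted p, 1 of 4 hub markers fell, and 1 of 8 markers of the muscle sheath fell. Of 7 fat body markers 3 rose: Fbp1 (log2 change 2.38), Fbp2 (0.82) and Lsp2 (0.73). The other 4 did not pass, with Yp3 at -0.33 (adjusted p = 0.285), and the median log2 change over the 7 was 0.07. The mean log2 signal of the list per array was 7.26 to 7.71 in Canton S, 7.60 to 7.68 in BL15598, 7.59 to 8.12 in A2663/2 and 8.21 to 8.24 in 2/v. The 2/v arrays had the highest mean of this list, of which 5 genes lay above the control median on every array. By group mean 2/v was also highest for the spermatid (13.9), cyst cell (7.95) and hub cell (7.74) lists, with overlapping arrays. It was not highest for the germline stem cell and spermatogonium, spermatocyte, accessory gland and muscle sheath lists. None of 9 accessory gland genes passed at adjusted or unadjusted p, with a median log2 change of 0.71 and array means from 10.1 to 12.6. The part of these other cells in the changes of the piRNA genes was not tested.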

How the data were processed

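Per the labels' protocols, 50 ng of testis RNA was amplified to cDNA, and 5 µg of fragmented, biotin-labelled cDNA was hybridised. The submitters' processing notes name Partek 6.5 and RMA. The deposited values are linear intensity values, 1 per probe set, and the mean of each array without the top and bottom 2% is 1500.03, so which scaling the authors applied is unknown. Precision is limited by there being 3 arrays a genotype.

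The deposited intensity values were taken to log2 with no further normalization. The 183 control probe sets were left out. limma 3.58.1 (R 4.3.3, lmFit and eBayes) fitted 4 genotype means to 12 arrays with 8 residual degrees of freedom, with two-sided tests and Benjamini-Hochberg adjustment over 18769 probe sets. Null against wild type is the mean of A2663/2 and 2/v minus the mean of BL15598 and Canton S. The script was tested on simulated data. Folds are ratios of geometric means.

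Of the probe sets, 13647 had 1 gene symbol in the platform annotation, 402 had several and 4720 had none. Where a gene had several such probe sets, the brightest on average over the 12 arrays stood for it. The text names every measured piRNA gene, and of the lists of further pathway genes those called in null against wild type. It also names the uncalled THO genes and the targets of testis piRNAs. Cell type markers are given as counts, with single genes named for the fat body list only. Neighbours came from the RefSeq gene order; the files name no genome build, so no coordinates are given. The piRNA genes and the other lists were chosen with earlier results of these data known.

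The nulls and wild types share replicate numbers, which were not used as pairs. In their deviations from the genotype means, 0 of 18 same-number pairs correlated above 0.1 (-0.037 to 0.0935, median 0.0172). Pairs of different number ran from -0.1 to 0.0604. Whether same-number samples share an effect was not tested. Alternatives tried were median centring, quantile normalization, array weights, a prior that is trended and robust, leaving out dim probe sets, the replicate number as a block, the mean of a gene's probe sets, an offset of 16, a fit of the compared groups only, and leaving out each array.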

Additional observations from a re-analysis of the deposited data

Results flagged for a closer look

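SoYb stood out because its change in the nulls differed between the pairs by a direct test: the change in 2/v against Canton S minus that in A2663/2 against BL15598 was -1.58 on the log2 scale (limma, adjusted p = 0.0145). All 3 arrays of A2663/2 lay above all 3 of BL15598, and all 3 arrays of 2/v lay below all 3 of Canton S. Such a gap was not rare among the 32 genes: 4 had the first and 11 the second. The share over all probe sets is not given here. The pairs differ in allele combination and in strain background, which cannot be told apart.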

How the results depend on the processing

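Percentages in brackets are the share of all probe sets called under the same setting. For null against wild type, 6 to 9 of the 32 genes were called over the 9 other settings (7.46 to 17.4 percent). With each array left out 6 were called (10.6 to 13.2 percent). cuff, spn-E, tej, krimp, shu and vls were called in every one of these fits. Counts for single pairs moved more. With median centring 8 genes were called in 2/v against Canton S (11.9 percent) and 4 in A2663/2 against Canton S (9.66 percent). In all 4 pairs 2 were (shu and vls, 2.17 percent). Quantile normalization gave 7, 4 and 2 for the same (11.5, 10.2 and 2.33 percent). With dim probe sets left out, 5 were called in A2663/2 against BL15598 (9.01 percent). That setting gave 1 each in A2663/2 against Canton S (11.9 percent), between the wild types (12.4 percent) and in all 4 pairs (2.68 percent). The trended and robust prior gave 2 in A2663/2 against Canton S (11.8 percent) and 3 between the wild types (12.1 percent). It gave 2 (SoYb and mino) for the difference of the null effects (6.14 percent) and 1 in all 4 pairs (2.79 percent). Array weights gave 5 in A2663/2 against BL15598 (10.4 percent) and 3 in A2663/2 against Canton S (12.8 percent). They gave 2 between the wild types (11.6 percent) and 1 in all 4 pairs (2.89 percent). Fits of the compared groups only gave 1 in A2663/2 against BL15598 (3.49 percent) and 1 in 2/v against Canton S (6.98 percent). In 2/v against BL15598 such a fit, from fewer arrays, gave 3 (5.74 percent). This fit could not be run for the difference of the null effects, which needs all 4 genotypes. The replicate block gave 3 in 2/v against BL15598 in place of 6 (9.51 percent), and left 6 in null against wild type (12.6 percent). The labels give the samples only a shared number. The cause of these shifts was otherwise not tested.

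With 1 array left out, the counts ran from 1 to 4 in A2663/2 against BL15598 (beside 4.25 to 6.73 percent of all probe sets). They ran from 1 to 4 in 2/v against Canton S (7.13 to 11.9 percent) and 3 to 6 in 2/v against BL15598 (7.08 to 10.9 percent). In A2663/2 against Canton S they were 0 to 2 (5.97 to 10.7 percent). Between the wild types they were 0 to 1 (7.07 to 8.88 percent), and between the nulls 0 to 1 (0.49 to 0.996 percent). The difference of the null effects gave 1 to 2 (2.66 to 4.04 percent), and without Canton S replicate 3 it also called AGO3 (adjusted p = 0.047). Genes that changed sign were all uncalled. With median centring these were piwi (-0.0075), vas (-0.032), mael (-0.0095), del (-0.14), vret (-0.099) and Hen1 (-0.10), and with quantile normalization piwi (-0.0017) and vas (-0.059). With array weights they were aub (0.041), vas (-0.015), del (-0.011) and Gasz (0.012), and with the mean of its probe sets qin (0.083). With 1 array left out, aub ran from -0.0833 to 0.034, moon from -0.10 to 0.039, Gasz from -0.048 to 0.0085, del from -0.043 to 0.080, Hen1 from -0.00042 to 0.12 and SoYb from -0.13 to 0.048. With 3 arrays a genotype, changes of an uncalled gene within its own interval were not resolved, and every piRNA gene lay above the control median.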
